A study of Mus musculus with 4 samples.

Results

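The cells named ILC3 were 1 of 21 cell types that the study's authors annotated by single-cell RNA sequencing of liver and lung cells. Their members here were the 153 genes that the authors' marker search returned for the type, of 1679 genes returned for any type (9.11%). Each pairing of 1 gene with 1 type is called a listing, and the 21 types had 4422 listings. The cells came from wild-type BALB/c mice, 8 weeks of age, that received 5 daily intraperitoneal injections of either recombinant IL-33 (rIL-33, 0.5 µg) or, as the control, PBS. The 4 groups, PBS liver, PBS lung, rIL-33 liver and rIL-33 lung, had 1 library each. All groups went through the same sort for group 2 innate lymphoid cells (ILC2s), which kept cells with CD127, Thy1 and ST2 on the surface and removed cells with lineage proteins, CD3e and TCRb among them. The values were deposited for the 4 libraries pooled, with no value per library, so neither organ nor treatment could be compared for the cells named ILC3. Neither sequencing depth nor cell numbers were in the tables, and no test was made because a cluster was defined by the genes it is compared on.

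Group 3 innate lymphoid cells are tissue lymphocytes without a rearranged antigen receptor. They answer to IL-1 and IL-23 and are known for release of IL-17 and IL-22 at barrier surfaces. Gamma delta T cells of the IL-17-producing kind use much of the same gene program but carry a T cell receptor and the CD3 chains.

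The cells named ILC3 made up 1.70% of all cells (least-squares SE 0.0213 percentage points), a size that was solved from the shares of cells in the table, and they ranked 12 of 21 by size. The deposited values used here are shares, in percent, of cells with a value above 0 for a gene, inside the type and in all other cells. The median share of the 153 genes was 72.8% in the cells named ILC3 and 62.8% in all other cells. A difference of at least 10 percentage points in favour of the cells named ILC3 was found for 56 of the 153 genes, which are 3.34% of the genes of the table and 36.6% of the listings of the type. Of all 4422 listings, 65.5% reached that difference. The median difference was 6.7 points for the cells named ILC3 and 18.4 points over all listings, so most of these genes were also found in many other cells. The shares outside ran from 28.6% to 98.6%, and 59 genes lay within 5 points of the other cells.

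**Figure D1:**
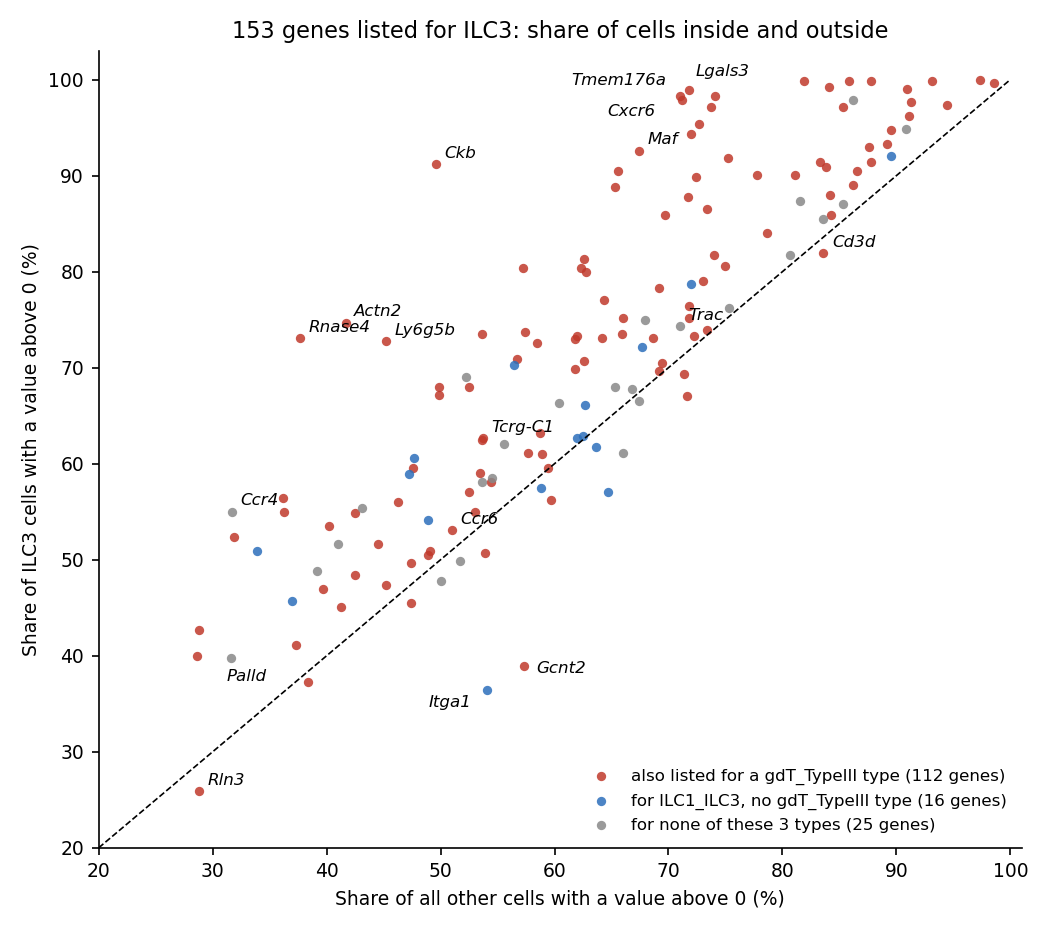
Each point is 1 of the 153 genes listed for the cells named ILC3, with the share of all other cells with a value above 0 (%) on the horizontal axis and the share of the cells named ILC3 (%) on the vertical axis. Red points were also listed for a gdT_TypeIII type (112), blue for ILC1_ILC3 and no gdT_TypeIII type (16), and grey for none of these; the dashed line marks equal shares, 136 points lie above it and 17 below it, and *Ckb* lies farthest above it at 91.2% against 49.6%.

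The levels of these shares are not plain detection rates. ILC2s can be read in both deposited tables, and of 117 genes listed for ILC2s in both, 113 had a higher share in the cell type comparison, by a median of 16.4 points. *Cd3e*, a chain of the T cell receptor complex, had a value above 0 in 83.3% of the cells outside the type named ILC3, although the sort removed cells with CD3e protein. The data layer behind the shares was not stated, and its part in the results was not tested. Shares are therefore compared within the table of cell types only.

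*Lgals3*, which encodes galectin-3, a lectin that binds galactose-containing sugars, is the gene given as the marker of the type. *Lgals3* lies at chr14:47367751-47386160 on the plus strand of mm10. It had a value in 98.9% of the cells named ILC3 and in 71.8% of all others, a difference of 27.1 points. It was also listed for 6 other types, at 99.7% in Basophil, 99.5% in ILC1_ILC3, 97.2% in gdT_TypeIII_CD163l1, 96.9% in gdT_TypeIII_ITGAE, 95.8% in Macrophage and 87.5% in ILC1. *Lgals3* thus marked the cells named ILC3 together with other lymphoid and myeloid types.

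Of the 22 ILC3 and type 17 marker genes in the table, 13 were listed for the cells named ILC3 (59.1%, against 9.11% of all genes). ILC1_ILC3 listed 15 of the 22, both gdT_TypeIII types 14 each and ILC2 9. Of the 13 genes, 8 had a difference of at least 10 points. *Ccr6*, a chemokine receptor that guides cells to CCL20, stood lower in the cells named ILC3 (53.1%) than in ILC1_ILC3 (82.5%) and gdT_TypeIII_ITGAE (84.2%), and higher than in Treg (24.3%). The share of *Ccr6* outside the type named ILC3 was 51.0%. *Il1r1*, the signalling receptor for IL-1, was at 48.4% against 42.5% outside, and at 63.2% in gdT_TypeIII_CD163l1 and 73.8% in ILC1_ILC3.

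*Tmem176a* and *Tmem176b*, neighbouring genes of membrane proteins found in type 17 lymphocytes, were both at 98.3%, against 71.0% and 74.1% outside. *Cxcr6*, the receptor for the chemokine CXCL16 and a mark of tissue-resident lymphocytes, was at 97.9% against 71.2%. *Maf*, a transcription factor of type 17 lymphocytes, was at 92.6% against 67.4%. These 4 genes had differences of more than 20 points, as *Lgals3* did. *Ahr*, a ligand-activated transcription factor that group 3 innate lymphoid cells need in the gut, was at 70.3% against 56.4%. *Il2ra*, the high-affinity chain of the IL-2 receptor, was at 73.3% against 62.0%, the lowest share of the 6 types that listed it. *Rora*, a nuclear receptor shared by helper-type innate lymphoid cells, was at 90.1% against 81.1%. The last of the list, *Gpr183*, an oxysterol receptor that positions lymphocytes, and *Zbtb16*, the PLZF factor of innate-like lymphocytes, had smaller differences, at 80.6% against 75.0% and 50.9% against 49.1%. Of the 13 genes, ILC1_ILC3 listed 12, and 11 had a higher share there than in the cells named ILC3. The gdT_TypeIII types listed 11 each, with 8 higher in gdT_TypeIII_CD163l1 and 7 in gdT_TypeIII_ITGAE. ILC2 listed 7, with 3 higher.

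The other 9 genes of this list in the table were not listed for the cells named ILC3. *Il17a*, which encodes IL-17A, was listed for both gdT_TypeIII types, at 69.6% in gdT_TypeIII_ITGAE and 59.0% in gdT_TypeIII_CD163l1, and *Il17f* for gdT_TypeIII_ITGAE at 67.6%. *Kit*, the stem cell factor receptor found on many group 3 innate lymphoid cells, *Lta*, a lymphotoxin gene, and *Ncr1*, the NKp46 receptor, were listed for ILC1_ILC3 at 80.3%, 75.4% and 79.2%. *Kit* was also listed for Endothelium cell (95.6%), MMP_LMPP (87.0%) and ILC2 (78.7%), *Lta* for gdT_TypeIII_CD163l1 (54.4%), and *Ncr1* for NK (99.3%) and ILC1 (95.1%). The remaining 4 were *Nrp1*, *Tnfsf11*, *Blk* and *Batf3*. *Il22*, *Il23r*, *Il17re* and *Ltb* were in no listing of the table. A missing listing does not show that a gene was absent from the cells.

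Some T cell receptor genes were listed, although the name denotes cells without a rearranged receptor. Of 18 T cell genes in the table, 6 were listed for the cells named ILC3 (33.3%, against 9.11% of all genes), with a difference of at least 10 points for 1 of them, *Cd3g*. *Cd3g*, a CD3 chain, had a value in 97.1% of the cells named ILC3 and in 85.3% of all others, and *Cd3e* in 91.4% against 83.3%. *Cd3d*, the neighbouring CD3 gene, was at 81.9% against 83.6%, below the other cells although it was listed. The 3 CD3 genes lie side by side on chromosome 9. In all 8 other types that listed them, *Cd3d* and *Cd3e* had a higher share than in the cells named ILC3, and these were T cell types by name. No CD3 gene was listed for ILC1_ILC3, ILC1, NK, ILC2 or ILC2_2, nor for gdT_TypeII, a gamma delta T cell type by name. *Trac*, the constant region of the receptor's alpha chain, was at 74.3% against 71.0%, *Trbc2*, of the beta chain, at 97.7% against 91.3%, and *Tcrg-C1*, of a gamma chain, at 62.7% against 53.7%. *Tcrg-C1* was at 98.6% in gdT_TypeIII_CD163l1 and 87.0% in gdT_TypeIII_ITGAE, the only other types that listed it. *Trdc*, the constant region of the delta chain, was listed for 4 gamma delta T cell types at 77.0% to 99.3%, and not for the cells named ILC3. Also not listed for them were *Trbc1*, *Tcrg-C2* and *Tcrg-C4*, further constant regions, the coreceptor genes *Cd4*, *Cd8a* and *Cd8b1*, and *Cd5*, *Cd6*, *Cd27*, *Cd28* and *Themis*. Constant regions of alpha, beta and gamma chains were thus listed for the cells named ILC3, and whether any receptor was rearranged was not tested. In a pooled table a mixture of cells and a single kind of cell with all these transcripts cannot be told apart. Some of these transcripts were also found in ILC2s, on the separate scale of the second deposited table. There *Trbc2* had a value in 81.8% of all ILC2s, *Cd3g* in 32.9%, *Tcrg-C1* in 26.0% and *Cd3e* in 5.8%.

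**Figure D2:**
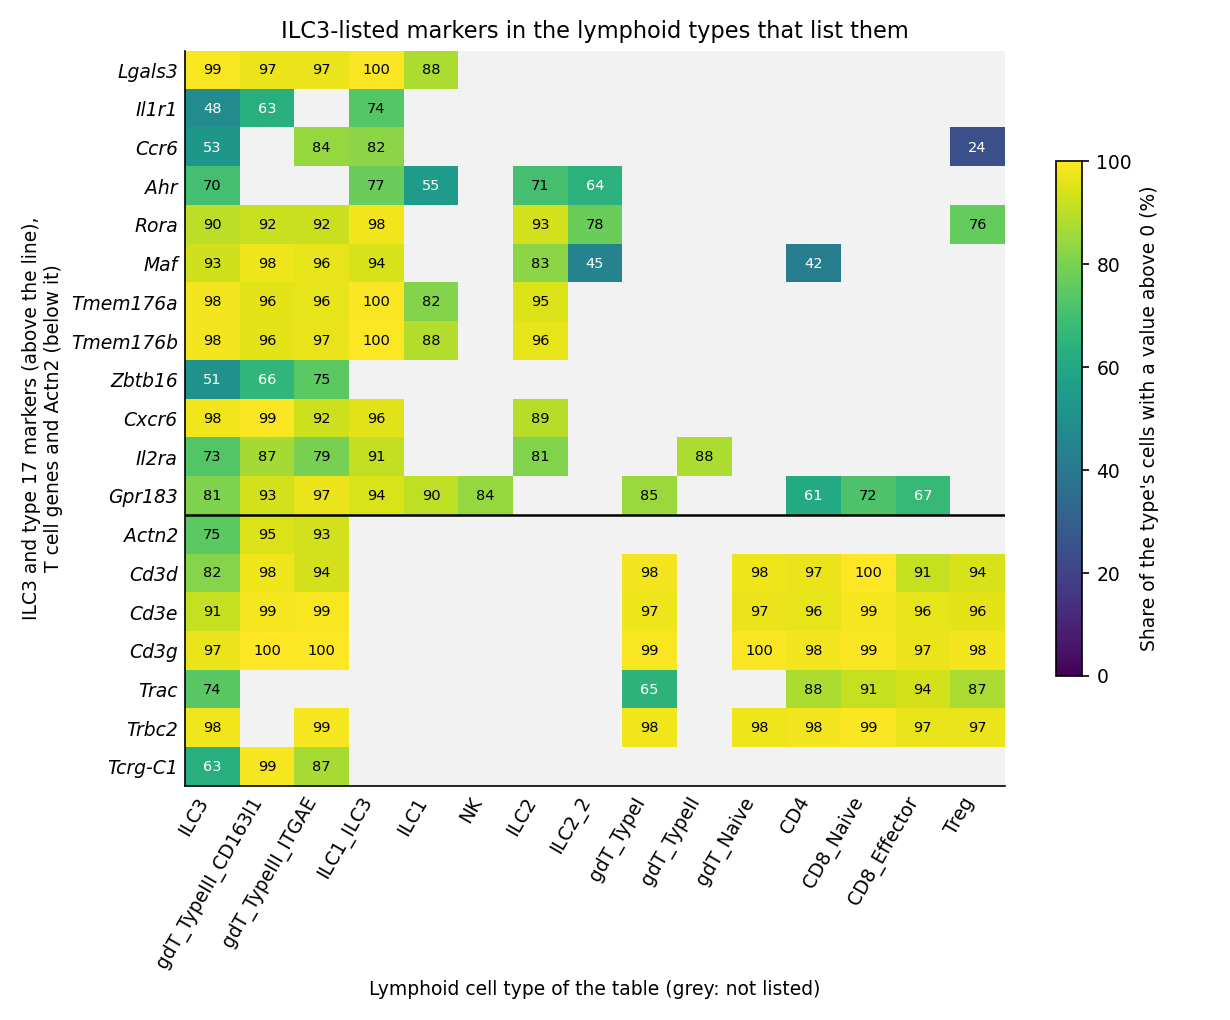
Rows are ILC3 and type 17 markers listed for the cells named ILC3 and, below the line, *Actn2* and the 6 T cell genes. Columns are the lymphoid types, and numbers and colour give the share of the type's cells with a value above 0 (%), grey where the gene was not listed, with non-lymphoid types left out. The CD3 genes are filled for the cells named ILC3, at 81.9% to 97.1%, and for the T cell types other than gdT_TypeII, and are grey for gdT_TypeII, ILC1_ILC3, ILC1, NK, ILC2 and ILC2_2.

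Lists of markers of other kinds of cell were read against the 9.11% of all genes. The gamma delta T17 list had 4 of 10 (40.0%), with *Tcrg-C1*, *Maf* and *Actn2* among them, where gdT_TypeIII_CD163l1 listed 10 and gdT_TypeIII_ITGAE 9. None of 10 naive lymphocyte markers, 12 B lineage markers, 13 basophil and mast cell markers, 8 MHC class II genes, 8 endothelial markers or 20 proliferation genes was listed, nor was the 1 hepatocyte and lung epithelial marker in the table. Of 26 ILC1 and NK markers 1 was listed, *Itga1*, the CD49a integrin chain, and it was lower in the cells named ILC3 (36.4%) than in all others (54.1%). The myeloid list had 1 of 13 (7.69%, *Ccr2*) and the progenitor list 1 of 9 (11.1%, *Zbtb16*), near the share of all genes. The regulatory T cell list had 3 of 8 (37.5%), *Ikzf2*, *Il2ra* and *Capg*, without *Foxp3*. Of 19 ILC2 markers 3 were listed (15.8%), *Rora*, *Icos* and *Il17rb*. *Il17rb*, a chain of the IL-25 receptor, was at 51.6% in the cells named ILC3 and 51.8% in ILC2, with 41.0% outside the type named ILC3. Neither *Gata3*, the master factor of ILC2s, nor *Il1rl1*, the gene of the ST2 protein used in the sort, was listed for the cells named ILC3.

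The 15 largest differences included 5 genes of the type 17 list given above, *Tmem176a*, *Lgals3*, *Cxcr6*, *Maf* and *Tmem176b*. *Ckb*, brain-type creatine kinase, which buffers ATP, had a value in 91.2% of the cells named ILC3 and in 49.6% of all others, the largest difference of the 153 genes. Its share was close to those of gdT_TypeIII_CD163l1 (94.7%), Macrophage (93.7%) and ILC1_ILC3 (92.3%), and above that of gdT_TypeIII_ITGAE (70.2%). *Rnase4*, a secreted ribonuclease, was at 73.1% against 37.7%, close to gdT_TypeIII_CD163l1 at 74.1%, gdT_TypeIII_ITGAE at 71.4% and ILC1_ILC3 at 71.0%. *Actn2*, an alpha-actinin best known from the muscle Z disc and a member of the gamma delta T17 list, was at 74.7% against 41.7%. *Actn2* was otherwise listed only for gdT_TypeIII_CD163l1 at 94.7% and gdT_TypeIII_ITGAE at 93.1%, both above the cells named ILC3. *Ly6g5b*, of the Ly6 family, was at 72.8% against 45.2%, between 81.7% in gdT_TypeIII_CD163l1 and 48.7% in gdT_TypeIII_ITGAE, with 37.7% in ILC1_ILC3. The top 15 also held *Ltb4r1* (88.8% against 65.3%), the leukotriene B4 receptor, and *Il18r1* (97.1% against 73.7%), a chain of the IL-18 receptor. The rest were *Capg* (90.5% against 65.6%), an actin-capping protein, *Pxdc1* (80.4% against 57.2%), *Ccr4* and *Ccr2*. Each of the 15 genes was also listed for at least 2 other types, but not always with a raised share. Among such listings, *Ccr4* was at -3.3 points from the other cells in Treg and -5.5 points in CD4, its only other types. *Ly6g5b* was at -8.0 points in ILC1_ILC3.

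Of 23 receptors for chemokines and for tissue positioning, 9 were listed (39.1%, against 9.11% of all genes). *Ccr2*, the receptor for CCL2, was at 95.4% against 72.7%. *Ccr4*, the receptor for CCL17 and CCL22, was listed for the cells named ILC3 (55.0%), Treg (28.9%) and CD4 (26.8%), with 31.7% outside the cells named ILC3. *Cxcr3*, a receptor for interferon-induced chemokines, was at 73.5% against 65.9%, *Cd44*, the hyaluronan receptor, at 87.8% against 71.7%, and *Cd69*, a retention signal, at 89.0% against 86.2%. *Ccr7*, used for entry into lymph nodes, was not listed. The 10 cytokine receptors in the table included 4 that were listed (40.0%, against 9.11% of all genes), *Il18r1*, *Il2ra*, *Il1r1* and *Il17rb*. Of 18 cytokines and growth factors 1 was listed (5.56%), *Tnf*, at 58.1% against 54.4%.

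Galectin, S100 and annexin genes were listed for 8 of 12 (66.7%), and cytoskeleton and motility genes for 6 of 7 (85.7%), against 9.11% of all genes. *S100a4*, *S100a6* and *S100a11*, calcium-binding proteins, all had a value in 99.8% of the cells named ILC3, against 81.9%, 85.8% and 93.1% outside. *S100a10*, a partner of annexin A2, had a value in every cell named ILC3 at the precision of the table, against 97.3% outside. *Lgals1*, which encodes galectin-1, was at 99.8% against 87.8%, and *Anxa1* and *Anxa5*, membrane-binding annexins, were at 78.7% against 72.0% and 70.7% against 62.6%. With shares inside at or near the ceiling, these S100 genes and *Lgals1* could differ from the other cells only as far as the shares outside fell short of it. Of the cytoskeleton genes, *Actn2* and *Capg* had large differences, *Lmna* (nuclear lamin A/C, 81.7% against 74.0%) and *Crip1* (a LIM-domain protein, 99.0% against 90.9%) smaller ones, and *Tagln2* (97.3% against 94.4%) and *Actg1* (99.6% against 98.6%) nearly none. Of 9 glycolysis enzymes 3 were listed (33.3%, against 9.11% of all genes), *Hk2* at 67.2% against 49.9%, *Pkm* at 88.0% against 84.2% and *Pgk1* at 70.5% against 69.4%. Of 28 immediate early and AP-1 genes 1 was listed, *Gadd45b* (3.57%, against 9.11% of all genes). Of the 28, ILC1_ILC3 and gdT_TypeIII_ITGAE listed 15 each, gdT_TypeIII_CD163l1 7 and ILC2 4. Their lists differ in length and hold 13.4%, 11.7%, 11.4% and 8.10% of all genes, in that order.

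**Figure D3:**
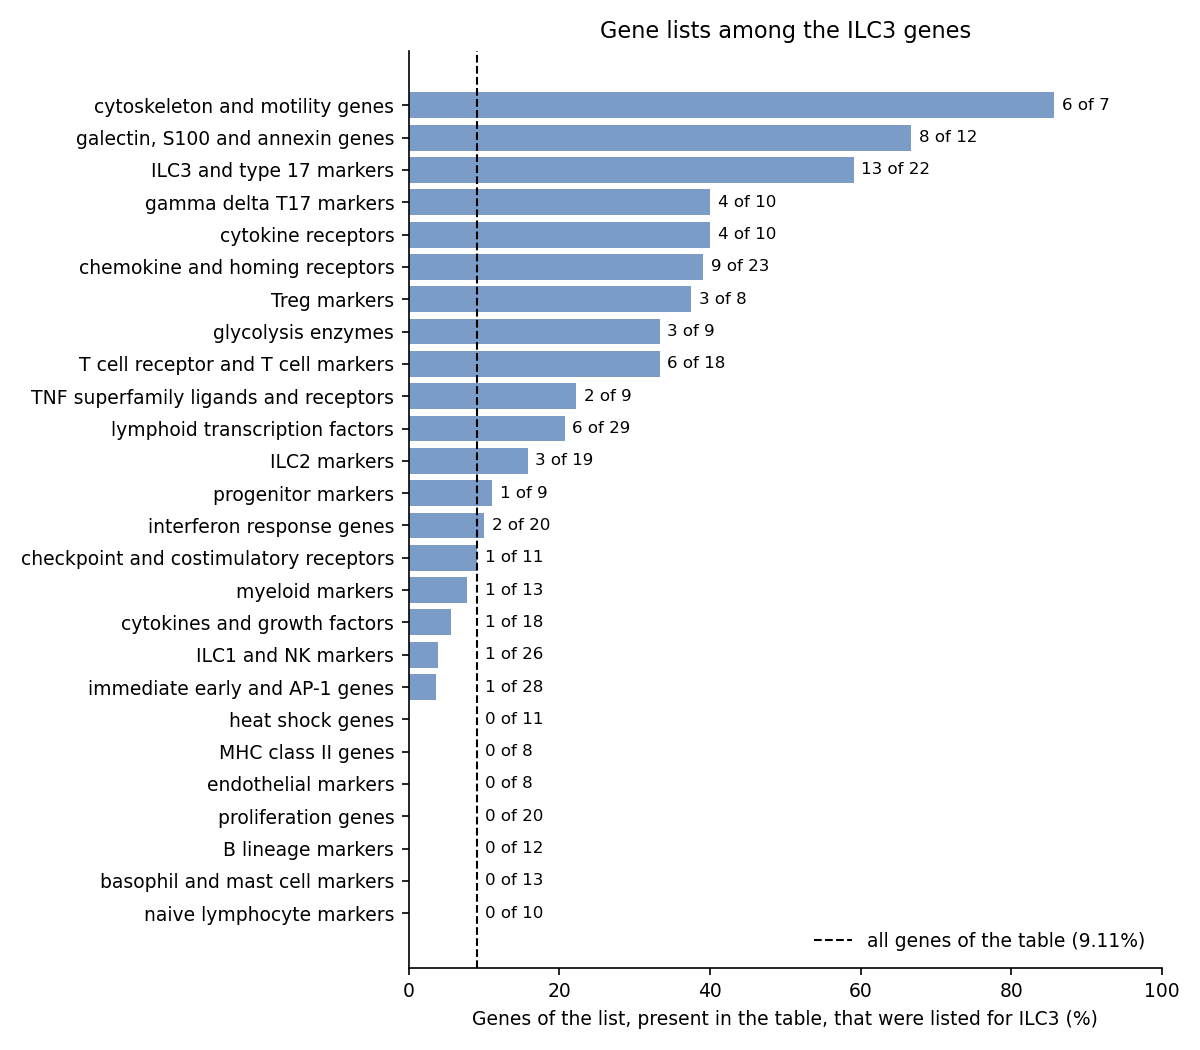
Bars give the share (%) of the genes of each list, among those present in the table of cell types, that were listed for the cells named ILC3, with the counts at the bars, for lists with at least 5 genes in the table. The dashed line is the 9.11% of all 1679 genes, and the cytoskeleton, galectin and S100, and type 17 lists extend farthest beyond it at 85.7%, 66.7% and 59.1%.

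Lists of other types were set against the 153 genes to see which types were most like the cells named ILC3. The types share nearly all of the cells they are compared with, so the overlaps are descriptions. gdT_TypeIII_CD163l1 had 100 genes in common, which are 65.4% of the 153 and 52.4% of its own list, where its list holds 11.4% of the genes of the table. ILC1_ILC3 had 81 (52.9% and 36.0%, against 13.4% of the table), gdT_TypeIII_ITGAE had 80 (52.3% and 40.6%, against 11.7%) and ILC2 had 36 (23.5% and 26.5%, against 8.10%). At least 1 of the 3 types other than ILC2 listed 128 of the 153 genes (83.7%), against 395 of all 1679 genes (23.5%). In the genes in common, the share was lower in the cells named ILC3 than in gdT_TypeIII_CD163l1 for 79 of 100, than in ILC1_ILC3 for 67 of 81 and than in gdT_TypeIII_ITGAE for 53 of 80, with median differences of -4.0, -8.7 and -4.8 points. The cells named ILC3 had the genes of these types at lower shares more often than at higher ones.

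**Figure D4:**
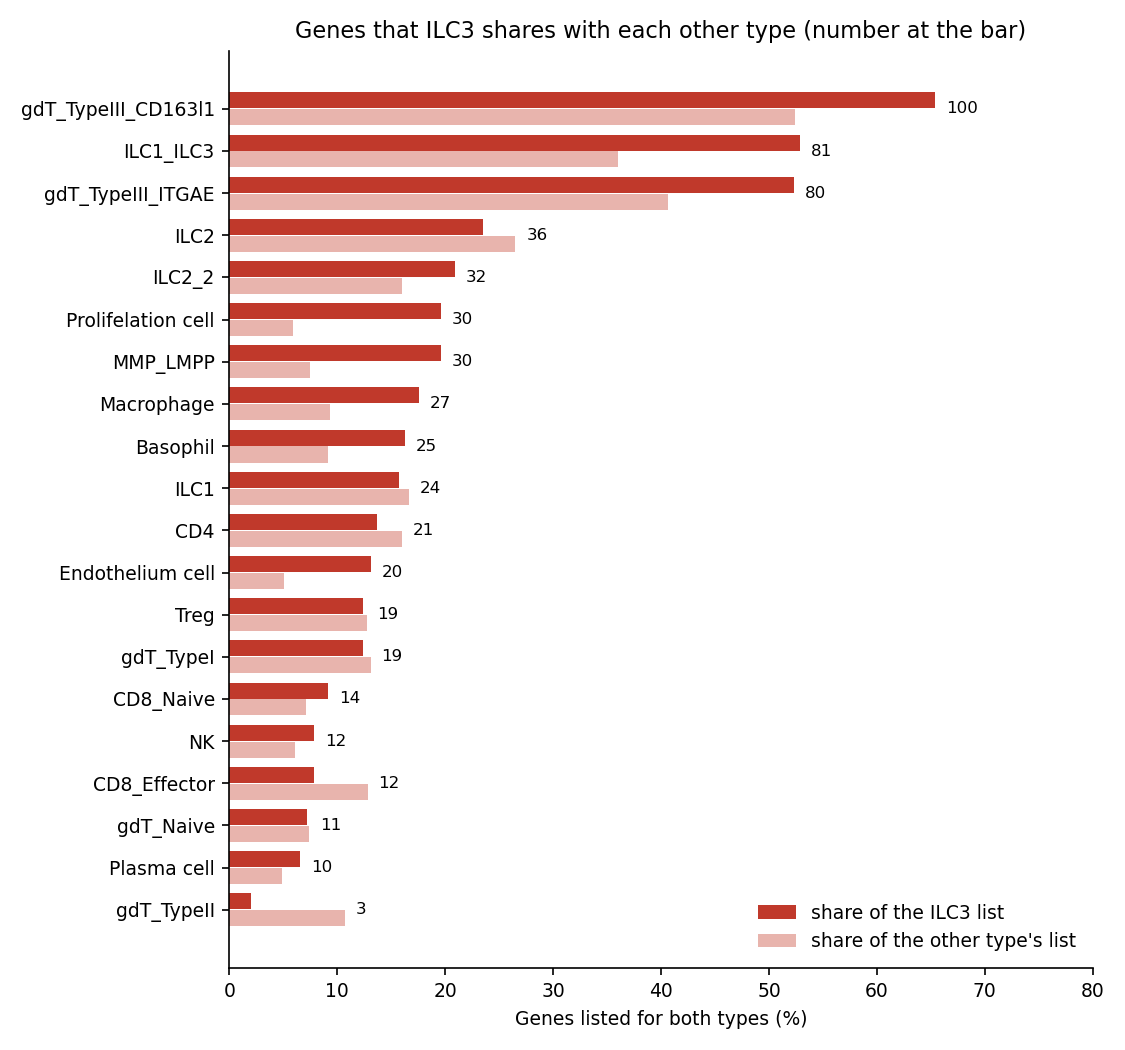
For each other type, the upper bar gives the genes it has in common with the cells named ILC3 as a share (%) of the 153 genes, the lower bar the same genes as a share of that type's own list, and the number at the bars counts them. gdT_TypeIII_CD163l1, ILC1_ILC3 and gdT_TypeIII_ITGAE lead with 100, 81 and 80 genes, and ILC2 follows with 36.

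The 153 genes were divided by which of these types listed them, and each count is given beside the share of all 1679 genes in the same block. All 3 of these types listed 43 of the 153 genes (28.1%, against 3.28%), with *Maf*, *Rora*, *Lgals3*, *Cxcr6*, *Il18r1*, *Tmem176a* and *Tmem176b* among them. A further 47 genes (30.7%, against 10.1%) were listed for a gdT_TypeIII type and not for ILC1_ILC3, and these held the CD3 genes, *Tcrg-C1*, *Trbc2*, *Actn2*, *Zbtb16*, *Icos* and *Ccr2*. A single gdT_TypeIII type and ILC1_ILC3 listed 22 (14.4%, against 2.98%), with *Ccr6*, *Il1r1* and *Cxcr3* among them. Another 16 (10.5%, against 7.15%) were listed for ILC1_ILC3 and no gdT_TypeIII type, with *Ahr*, *Anxa1* and *Itga1* among them. ILC2 and none of the 3 listed 7 genes (4.58%, against 4.59%), including *Il17rb*. None of these 4 types listed the last 18 genes (11.8%, against 71.9%), among which were *Ccr4*, *Trac*, *Palld*, *Thy1*, *Lck* and *Cd40lg*. The last 3 of these were chosen after their values were seen, as were *Rcbtb2*, *Gclc*, *Lmo4*, *Kcnc1* and *Ramp1* below.

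Of the 153 genes, 1 (0.654%) was listed for no other type, *Palld* (chr8:61511433-61902690), against 634 of the 1679 genes of the table that were listed for a single type (37.8%). *Palld* encodes palladin, an actin-associated scaffold, and had a value in 39.8% of the cells named ILC3 and 31.6% of all others. Another 6 genes were listed for 2 types, 86 for at least 5, and the median was 5 types, against 2 over all genes of the table. The cells named ILC3 had the highest share of all listing types, or were level with it, for 12 genes. *Palld* was among them with no other type to rank against, which leaves 11 genes listed for at least 2 types. *Rcbtb2*, at 49.9% with 46.9% in gdT_TypeI, was among the 11 although all other cells stood at 51.7%. Such a count was not made for the other types. *Thy1*, the surface protein used in the sort, was at 97.9% with 90.6% in CD8_Effector next and 86.2% in all other cells. *Icos*, a costimulatory receptor, was at 89.9% with 85.4% in Treg next and 72.4% in all other cells. *Cd40lg*, the ligand of CD40, was at 58.5% with 45.6% in CD4 next, but all other cells stood at 54.5%, so the difference from them was 4.0 points. *Gclc*, an enzyme of glutathione synthesis, was at 69.0% with 60.3% in ILC2 next and 52.2% in all other cells. For *Lmo4* and *Kcnc1* the next type, gdT_TypeIII_ITGAE, was within 2 points, and *Ramp1* and *S100a10* were level with another type.

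The 10 genes with the lowest shares outside the type had shares of 25.9% to 56.4% in the cells named ILC3. They included *Palld*, *Ccr4*, *Plxnd1* (a semaphorin receptor, 42.7% against 28.8%), *Ppp1r14c* (a phosphatase inhibitor, 52.4% against 31.9%), *Khdrbs3* (an RNA-binding protein, 50.9% against 33.9%), *Mmp25* (a membrane metalloproteinase, 56.4% against 36.2%), *Adam8* (a membrane protease, 55.0% against 36.3%) and *Plekhg1* (45.7% against 37.0%). *Rln3*, a relaxin-family peptide, was at 25.9% against 28.8% and stood higher in ILC1_ILC3 (44.8%) and gdT_TypeIII_CD163l1 (34.0%). At the other end, *Gcnt2*, a glycosyltransferase, was at 38.9% against 57.3%, and *Itga1* was the only other gene at least 10 points below. *Ier5l* (57.1% against 64.7%), *Gbp4* (61.1% against 66.0%) and *Nabp1* (67.0% against 71.6%) completed the 5 lowest differences. A share counts cells with any value and not the amount per cell, and the amounts were not used here.

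Because *Rora* encodes a factor that binds the core letters AGGTCA, promoters of the 153 genes were searched for them on both strands, with RefSeq sequences of GRCm38.p6 from 250 bases before to 50 bases after the start. Of 155 promoters of 115 matched genes, 18 held AGGTCA (11.6%), against 216 of 1660 promoters of the genes of the table that were matched (13%) and 16.3% of 32851 promoters in all. The AP-1 letters TGANTCA were in 15 (9.68%), against 6.69% and 7.81%. The share with AGGTCA was below both backgrounds. The 250 bases before the start are shown for *Ccr6* (chr17:8235793-8236042, plus strand) and *S100a4* (chr3:90603520-90603769, plus strand), as a receptor of the type 17 list and an S100 gene that hold it, with AGGTCA or its reverse complement in capitals.
Ccr6: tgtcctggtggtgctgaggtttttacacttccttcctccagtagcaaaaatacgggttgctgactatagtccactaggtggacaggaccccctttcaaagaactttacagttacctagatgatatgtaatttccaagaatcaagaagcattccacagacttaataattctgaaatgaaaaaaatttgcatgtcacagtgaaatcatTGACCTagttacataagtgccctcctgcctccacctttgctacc
S100a4: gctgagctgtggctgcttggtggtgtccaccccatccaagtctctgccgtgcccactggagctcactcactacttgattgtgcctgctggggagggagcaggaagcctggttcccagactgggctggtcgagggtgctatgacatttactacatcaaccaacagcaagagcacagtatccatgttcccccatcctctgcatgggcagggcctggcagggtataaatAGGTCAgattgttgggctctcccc
A match is a run of letters and not a shown binding site.

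The deposited second table divided the cells kept as ILC2s into 10 subclusters, numbered from 0, and so shows where genes of the cells named ILC3 were found within another cell type. It held 111 of the 153 genes (72.5%), against 821 of all 1679 genes (48.9%). Subcluster 6 listed most of them, 35, which are 31.5% of the 111 and 46.7% of the genes of subcluster 6 that were in both tables, where subcluster 6 listed 9.14% of all genes in both tables. The shares there are on the scale of the second table. *Lgals3* had a value in 97.5% of subcluster 6 and 81.0% of the other ILC2s, *Capg* in 80.4% and 60.7%, *Il17rb* in 72.7% and 47.4%, *Rnase4* in 34.3% and 19.1%, and *Actn2* in 30.0% and 13.8%. Of these, *Lgals3* stood higher in subcluster 1 (97.8%) and *Capg* in subcluster 9 (82.7%), while *Rnase4* and *Actn2* were listed for no other subcluster. *Cd3g* (46.1% and 32.4%), *Tcrg-C1* (40.1% and 25.5%) and *Trbc2* (88.0% and 81.5%) were listed for subcluster 6 too. *Cd3g* was also listed for subcluster 5, and *Tcrg-C1* for subcluster 7 at 42.0%. The authors had removed cells with *Cd3* expression before the ILC2s were divided. The paper reports very low *Cd3g* and *Tcrg-C1* expression in ILC2s next to gamma delta T cells, and no detectable TCRg by flow cytometry. Those are expression levels, whereas a share here counts cells with any value. *Maf* and *Cxcr6* were not among its 35 genes.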

How the data were processed

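Cells of 4 libraries, 1 per group, were sequenced from transcript 3′ ends. The authors aligned reads with Cell Ranger to mm10, removed doublets and dead cells by flow cytometry and cells with few genes, scaled and log transformed the counts, and clustered and annotated cells in Seurat. The deposited tables give, per gene and type, the fraction of cells with a value above 0 inside the type and in all other cells, to 3 decimals, printed here as percent. The log2 fold changes and p-values also deposited are the authors' own comparisons and were not used. The tables held 0 further columns of per-sample values. No doublet caller could be run on tables without cells.

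Type sizes were fitted by least squares (numpy 2.4.6, pandas 2.3.3), since the fraction outside plus the size times the difference of both fractions equals the fraction in all cells for every type that lists a gene. The fit used 1045 genes listed for at least 2 types, and on simulated data over 1679 genes the largest error was 0.0171 percentage points. Coordinates came from GENCODE on the same build, in which all 153 genes were matched.

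The members and the 27 gene lists were chosen with earlier results of these data known. Named genes were the 15 with the largest difference in share, the 10 with the lowest share outside, the 5 with the lowest difference, genes listed for no other type, and genes of the marker lists or of other lists with 3 or more members. Alternatives were thresholds on the difference and other fits of the sizes. Some genes that the rule covers are not reported here.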

Additional observations from a re-analysis of the deposited data

How the results depend on the processing

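The size of the type named ILC3 ran from 1.68% to 1.71% over the 4 other fits. Of the 153 genes, 136 had a higher share than outside, 56 were at least 10 points higher and 18 at least 20 points higher. With at least 10 points required in both types, the genes in common numbered 41 for gdT_TypeIII_CD163l1, 37 for gdT_TypeIII_ITGAE, 36 for ILC1_ILC3 and 20 for ILC2, of 56. At least 10 points required in the cells named ILC3 alone left 8 ILC3 and type 17 markers, 1 T cell gene, 4 galectin, S100 and annexin genes, 2 cytoskeleton genes, 4 chemokine and homing receptors, 3 lymphoid transcription factors and 1 glycolysis enzyme. Of the genes in the subcluster table, 96 of 111 remained with a higher share inside required in both tables. No paired analysis was possible because the libraries were pooled in the deposited tables and each group had 1 library. Leaving out a library was not possible for the same reason, and the tables hold neither depth per library nor cell numbers.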
